A study of Mus musculus with 8 samples.

Results

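The regions described here are stretches of open chromatin that ranked high in all 4 libraries of BV2 mouse microglial cells grown alone and in at most 1 of 4 libraries of BV2 cells grown with glioma cells. Peaks of each library were ranked by their deposited −log10 p, and the first 9910 of each list were called high-ranked. Peaks of all 8 lists that overlapped on chromosomes 1 to 19 and X were then merged into regions. This rule left 254 monoculture-high regions, which is 0.623% of all 40770 regions and 5.57% of the 4563 regions high-ranked in all 4 monoculture lists. The mirror rule, with the cultures exchanged, left 500 co-culture-high regions (1.23% of all regions and 8.9% of the 5621 high-ranked in all 4 co-culture lists), and 3417 regions were high-ranked in all 8 lists.

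ATAC-seq uses the Tn5 transposase, which cuts and tags DNA where nucleosomes and other proteins leave it open, so that a pile of fragments marks an accessible site. Accessible sites are of 2 broad kinds. Promoters, at gene starts, are often rich in CpG and are open in many cell types, whereas distal elements such as enhancers lie inside introns or between genes and differ more between cell types and states. In macrophages and microglia, distal elements are selected to a large degree by the ETS factor PU.1 with partners such as C/EBP, AP-1, IRF and RUNX proteins.

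BV2 is an immortalized mouse microglial line, and GL261 is a mouse glioma line. BV2 cells were kept as a monoculture or seeded onto GL261 cells, at 2 glioma cells for each BV2 cell, and each culture was held for 16 h at 21% oxygen (normoxia) or below 0.1% oxygen (hypoxia). Each of these 4 groups had 2 biological replicates. Cells were fixed with formaldehyde while still under hypoxia and sorted for CD45, a leukocyte surface protein, or for GFP, and which gate served which library is not stated. The model is thus 1 immortalized line in mixed culture. In a sorted bulk sample, fewer cells with an open site and less opening per cell cannot be told apart.

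The monoculture normoxia lists held 13333 and 9910 peaks, the monoculture hypoxia lists 24370 and 26339, the co-culture normoxia lists 21790 and 21826, and the co-culture hypoxia lists 29658 and 21633. The shortest list was therefore high-ranked as a whole. Of 38 microglia and macrophage genes, 15 to 18 had a high-ranked peak within 10 kb in a monoculture list and 16 to 22 in a co-culture list. Aif1, Ptprc (the gene of CD45), Trem2 and P2ry12 had one in all 8 lists, and Spi1 (the gene of PU.1), Tyrobp, Adgre1 and C1qa in none. Of 22 glioma and neural genes, 1 to 2 had one in a monoculture list and 2 to 3 in a co-culture list. Gfap, Olig2, Sox2, Nes, Sox10 and Pdgfra had none in any list, whereas Vim and Cd44 had one in 1 monoculture list and in all 4 co-culture lists. Met had one in 3 monoculture lists and in 0 co-culture lists, and Tnc in 1 and 0. Of 12 fibroblast genes, 0 to 2 had one in a monoculture list and 0 to 1 in a co-culture list. The part of other cells in the results that follow was not tested.

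Only 11 of the monoculture-high regions held an annotated start of a coding or other gene, and these are the ones whose DNA can be shown. The 250 bases before the start are printed 5′ to 3′ along the strand of the gene, from RefSeq on GRCm38.p6, for 7 of the 11, those at genes of immune, lipid or metabolic function. The 7 include every gene with PU.1 or C/EBP letters and were chosen after the letters were read. Capitals mark matches, on either strand, to the letters GAGGAA (PU.1), TGANTCA (AP-1), TTGCNNAA (C/EBP) and GAAANNGAA (IRF). GAGGAA is shared by other ETS factors, and in the Klra17 window its first match stands 1 base from the C/EBP match without overlap. They are shown because such windows were the exception among the monoculture-high regions and because their base composition can be set beside that of other open promoters.
Ptgs1, chr2:36230176-36230425 (+): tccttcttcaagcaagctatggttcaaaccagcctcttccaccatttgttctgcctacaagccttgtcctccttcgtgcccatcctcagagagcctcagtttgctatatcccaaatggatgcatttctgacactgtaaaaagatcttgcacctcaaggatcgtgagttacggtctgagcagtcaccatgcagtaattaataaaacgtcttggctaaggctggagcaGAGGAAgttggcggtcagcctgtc
Apbb1ip, chr2:22774077-22774326 (+): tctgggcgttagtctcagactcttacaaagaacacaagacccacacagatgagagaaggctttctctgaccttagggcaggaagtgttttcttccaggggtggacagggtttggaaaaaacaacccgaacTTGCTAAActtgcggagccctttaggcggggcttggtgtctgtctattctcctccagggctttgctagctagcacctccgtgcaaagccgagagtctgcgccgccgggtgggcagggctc
Klra17, chr6:129876673-129876922 (-): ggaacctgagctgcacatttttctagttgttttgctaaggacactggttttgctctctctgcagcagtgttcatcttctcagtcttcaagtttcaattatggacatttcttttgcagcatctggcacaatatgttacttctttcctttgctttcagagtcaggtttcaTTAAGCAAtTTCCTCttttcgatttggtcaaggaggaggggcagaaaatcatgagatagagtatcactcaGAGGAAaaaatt
Mgst1, first of its starts, chr6:138140277-138140526 (+): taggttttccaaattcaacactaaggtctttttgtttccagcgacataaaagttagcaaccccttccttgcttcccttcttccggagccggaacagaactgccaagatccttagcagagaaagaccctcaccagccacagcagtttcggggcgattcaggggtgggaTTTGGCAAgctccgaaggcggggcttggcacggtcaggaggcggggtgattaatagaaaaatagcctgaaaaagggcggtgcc
Tank, first of its starts, chr2:61578307-61578556 (+): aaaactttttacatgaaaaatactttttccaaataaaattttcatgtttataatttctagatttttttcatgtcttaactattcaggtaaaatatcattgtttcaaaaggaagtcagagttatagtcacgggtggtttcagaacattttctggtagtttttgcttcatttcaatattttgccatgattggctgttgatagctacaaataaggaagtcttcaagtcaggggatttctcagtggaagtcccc
Ube2l6, chr2:84798578-84798827 (+): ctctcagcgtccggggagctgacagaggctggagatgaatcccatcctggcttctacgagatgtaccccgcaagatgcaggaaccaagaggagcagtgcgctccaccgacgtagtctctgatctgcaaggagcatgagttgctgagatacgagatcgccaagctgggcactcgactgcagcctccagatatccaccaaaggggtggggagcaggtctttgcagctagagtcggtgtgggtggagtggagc
Rnf145, chr11:44520039-44520288 (+): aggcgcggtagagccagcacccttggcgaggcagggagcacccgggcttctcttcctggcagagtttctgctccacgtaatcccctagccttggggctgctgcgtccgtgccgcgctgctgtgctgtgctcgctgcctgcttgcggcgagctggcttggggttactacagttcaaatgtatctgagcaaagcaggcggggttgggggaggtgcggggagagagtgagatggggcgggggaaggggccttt

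These windows were poorer in CpG than most open promoters of these libraries. The 11 regions held 13 starts, and the 13 windows had a median GC content of 48% and a median of 5 CpG. The windows of starts in co-culture-high regions had 62.8% and 18 CpG (386 windows), those in regions high-ranked in all 8 lists 61.2% and 18 CpG (2579 windows), and all 32619 windows 52.4% and 6 CpG. GGGCGG, the letters of SP and KLF factors, stood on either strand in 3 of 13 windows (23.1%), against 66.8% of co-culture-high windows, 67.5% of windows high-ranked in all 8 lists and 33.0% of all. PU.1 letters stood in 3 of 13 (23.1%), close to the 21.5%, 22.6% and 23.4% of the same 3 sets. C/EBP letters also stood in 3 of 13 (23.1%), against 4.92%, 7.44% and 9.62%, AP-1 letters in 1, and IRF letters in 0. With 13 windows, of which those of 1 gene can overlap, these shares are a description, and a match of letters is not a site of binding.

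By rank, the 254 regions stood in the middle of the first 9910 peaks of the monoculture lists and mostly past the first 9910 in the co-culture lists. Their median rank was 6571.5 and 5157 in the normoxic monocultures and 6789 and 6022 in the hypoxic ones. Among those with a peak, it was 11366 and 11767 in co-culture normoxia and 14830.5 and 13417 in co-culture hypoxia. These are the values that chose the regions, so they carry no test, and ranks past the first 9910 come from lists of unequal length and show no change by themselves. The regions were not the strongest of the monoculture lists: those high-ranked in all 8 lists had median ranks of 1984 to 2291 there. High-ranked peaks were found at 69, 50, 24 and 12 of the 254 regions in the co-culture lists (normoxia replicates 1 and 2, then hypoxia replicates 1 and 2). In all, 155 regions were high-ranked in 1 co-culture list and 99 in none. All 4 monoculture ranks were better than all 4 co-culture ranks, counting a missing peak as last, at 169 of the 254 regions (66.5%), against 12.1% of all regions high-ranked in all 4 monoculture lists. The rule fixes this for the 99, and 70 of the 155 (45.2%) did the same, so nothing is read from it.

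**Figure D1:**
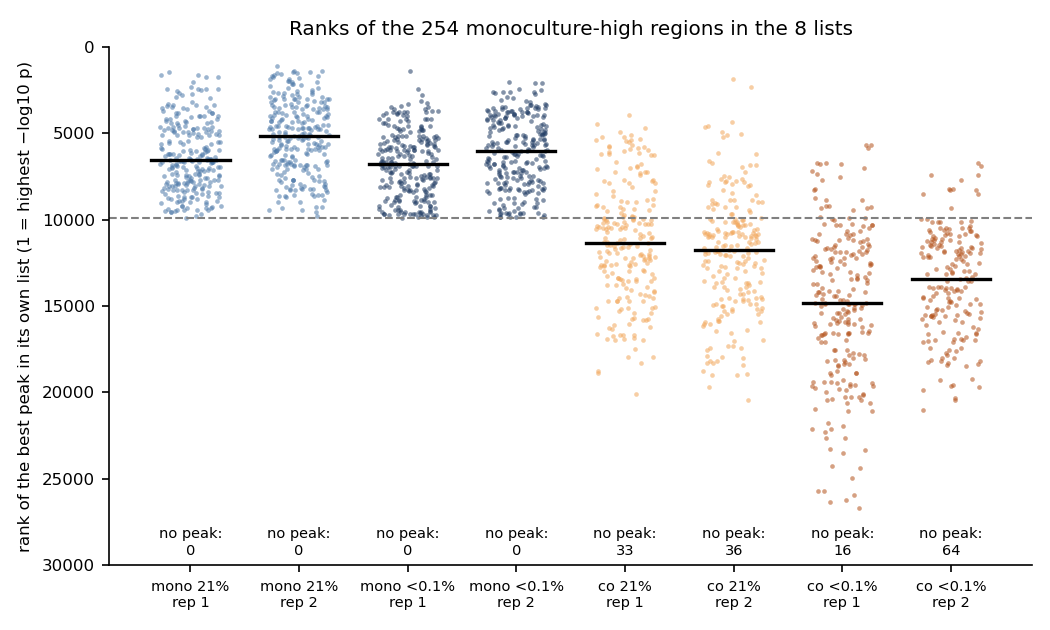
Each point is 1 of the 254 monoculture-high regions, plotted by the rank of its best peak in each of the 8 lists (y axis, rank 1 at the top), with a bar at the median and the number of regions without a peak written at the foot. The dashed line is rank 9910: all monoculture points lie above it by the rule, and most co-culture points lie past it, with 16 to 64 regions without a peak.

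Most of these sites were still open enough to be called in co-culture. Any peak was present at 221, 218, 238 and 190 of the 254 regions (87.0%, 85.8%, 93.7% and 74.8%). Peaks were present in all 4 co-culture lists at 157 regions, in 3 at 61, in 2 at 24, in 1 at 8 and in 0 at 4. Of all 4563 regions high-ranked in all 4 monoculture lists, 94.7% had a peak in all 4 co-culture lists. The label that these regions weaken therefore describes a loss of rank at most of them, and a missing peak in at least 1 co-culture list at 97.

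The number of fragments at the summit was solved from the deposited fold and −log10 p of each peak. Relative to the regions high-ranked in all 8 lists, it was lower in all 4 co-culture libraries. The plain count was lower in hypoxic co-culture and higher in normoxic co-culture than in monoculture at the same oxygen level. Its median over the monoculture-high regions with a peak was 18 and 20 in the normoxic monocultures, 39.5 and 48 in the hypoxic monocultures, 24 and 25 in the normoxic co-cultures, and 30 and 22 in the hypoxic co-cultures. Over the regions high-ranked in all 8 lists, the medians were 34, 33, 68 and 76 in monoculture and 63, 78, 82 and 70 in co-culture. The ratio of the first to the second was 0.529, 0.606, 0.581 and 0.632 in the 4 monoculture libraries and 0.381, 0.321, 0.366 and 0.314 in the 4 co-culture libraries. The lowest monoculture ratio was above the highest co-culture ratio, a separation that the choice of regions favours and that was given no test. Other references did not separate the normoxic groups. The median deposited fold over these regions was 6.77 and 5.58 in normoxic monoculture and 6.47 and 6.30 in normoxic co-culture. In hypoxia it was 8.30 and 8.63 in monoculture and 7.32 and 6.50 in co-culture. Over all peaks, the median fragment number was 18 and 21 in normoxic monoculture and 24 and 26 in normoxic co-culture. In hypoxia it was 27 and 29, against 30 and 27.

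**Figure D2:**
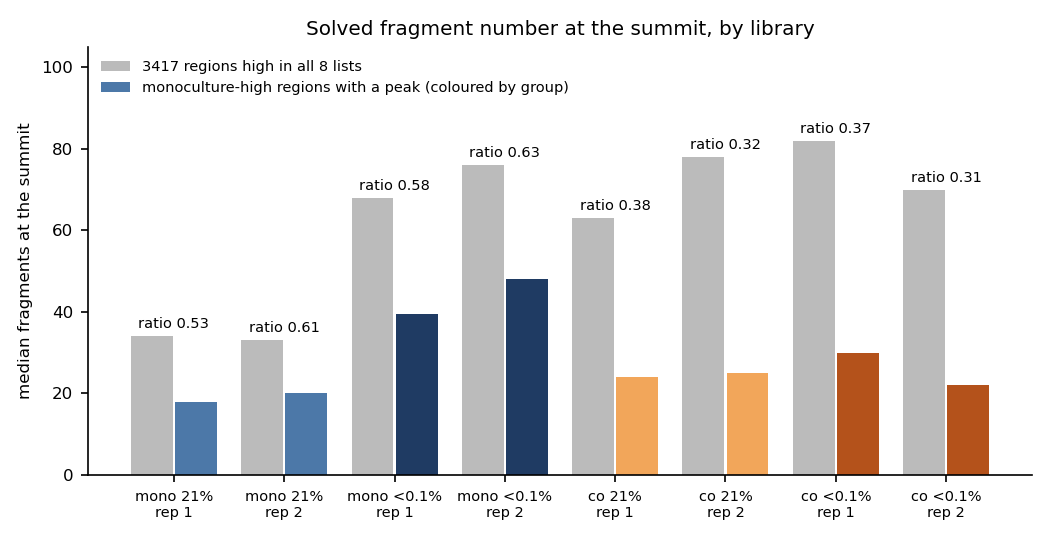
Bars give the median solved number of fragments at the summit (y axis) in each of the 8 libraries (x axis), in grey for the 3417 regions high-ranked in all 8 lists and in colour for the monoculture-high regions with a peak. The ratio of the coloured to the grey bar is written above each pair and lies between 0.53 and 0.63 in monoculture and between 0.31 and 0.38 in co-culture.

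Position relative to genes was not used by the rule, and the monoculture-high regions were almost all distal. Only 17 of 254 (6.69%, exact 95% binomial interval 3.95% to 10.5%, counting error only) lay within 1 kb of the start or end of a protein-coding gene. The share was 66.8% of the 500 co-culture-high regions, 58.2% of the regions high-ranked in all 8 lists, 47.8% of those high-ranked in all 4 monoculture lists and 24.6% of all regions. The rule applied without co-culture normoxia replicate 1 or 2 chose more regions, of which 11.6% or 11.7% lay there. Of the other monoculture-high regions, 120 (47.2%) lay inside a gene and 117 (46.1%) outside genes. The median distance to the nearest gene start or end was 25040.5 bp, against 12337 bp for all regions and 0 for both the co-culture-high regions and those high-ranked in all 8 lists. More than 100 kb separated 46 regions (18.1%) from any gene start or end. The share was 5.65% of the regions high-ranked in all 8 lists, 8.00% of those high-ranked in all 4 monoculture lists and 10.6% of all regions. On the chromosomes other than 18, 11 of 242 regions (4.55%) held a gene start, against 61.0% of co-culture-high regions and 20.5% of all regions.

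The share at gene starts or ends grew with the number of co-culture lists in which a monoculture region stayed high-ranked. It was 5.05% of the 99 regions high-ranked in no co-culture list, 7.74% of 155 in 1, 15.8% of 380 in 2, 22.7% of 512 in 3 and 58.2% of 3417 in all 4. These sets are not matched for rank. Median monoculture ranks were 1984 to 2291 for the 3417 regions and 5157 to 6789 for the 254. Peak strength and culture are therefore not told apart in these shares. Applying the rule to oxygen in place of culture gave 459 hypoxia-high regions (1.13% of all), of which 13.3% lay at gene starts or ends, and 444 normoxia-high regions (1.09%), of which 58.3% did. The monoculture-high regions were thus closer in position to the hypoxia-high than to the normoxia-high regions. The regions themselves were of ordinary size, with a median width of 853.5 bp (range 482 to 2250), against 980 bp for regions high-ranked in all 8 lists and 615 bp for all regions.

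**Figure D3:**
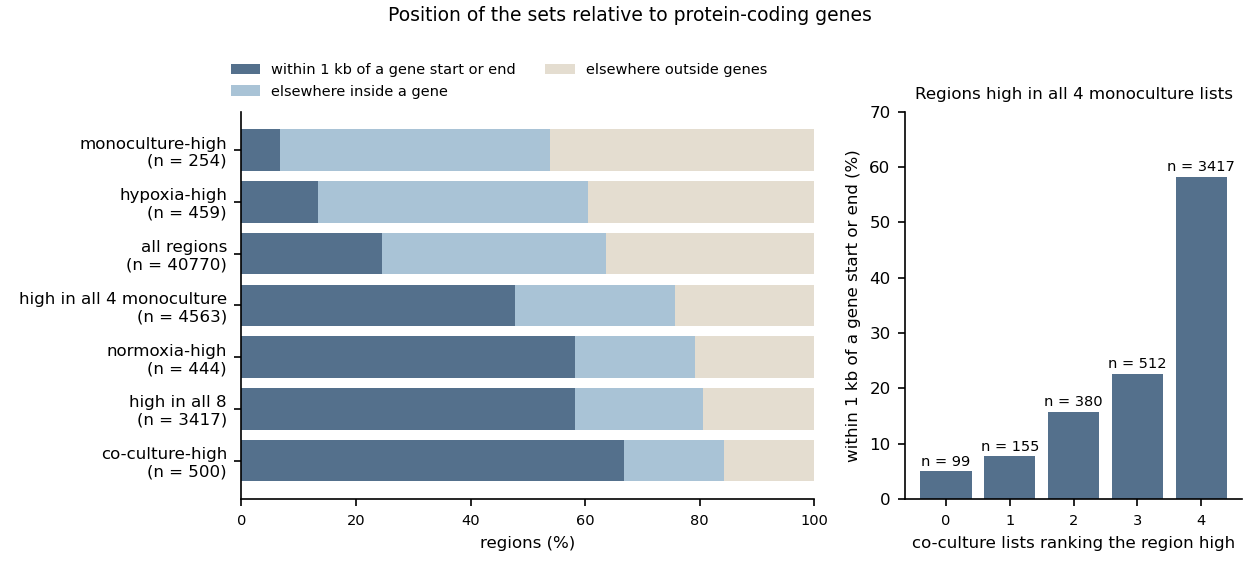
On the left, bars give the percent of regions (x axis) within 1 kb of a protein-coding gene start or end, elsewhere inside a gene, or outside genes, for 7 sets of regions. On the right, the percent within 1 kb (y axis) is plotted for regions high-ranked in all 4 monoculture lists by the number of co-culture lists in which they were high-ranked, and it goes from 5.05% at 0 lists to 58.2% at 4.

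The composition of whole lists moved in the same direction. Of the first 9910 peaks, 41.4%, 40.0%, 35.8% and 32.5% lay within 1 kb of a gene start or end in the 4 monoculture lists and 45.5%, 50.9%, 44.7% and 53.1% in the 4 co-culture lists. All 4 co-culture shares exceeded all 4 monoculture shares. Ranks are relative within a list, so distal peaks were also ranked alone. When only peaks more than 1 kb from a gene start or end were ranked against each other, with 5943 peaks a list, 122 regions met the same rule. Of these, 119 were among the 254, which is 46.9% of the 254 and 97.5% of the 122. The same ranking gave 286 co-culture-high regions. This ranking was chosen after the values were seen.

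The monoculture-high regions were scattered over the genome. They were found on every chromosome examined, and they made up from 3.36% (chromosome 14) to 9.60% (chromosome 18) of the regions high-ranked in all 4 monoculture lists. The median distance to the nearest other monoculture-high region was 2761700 bp, and 12 regions had another one within 50 kb. These were 6 pairs. Both regions of a pair lay inside 1 gene at Pik3cb, a catalytic subunit of PI3-kinase (8296 bp apart), at Chd9, a chromatin remodeller (10566 bp), and at Tbc1d5, a regulator of endosomal sorting (26871 bp). At Ptgs1 the members of a pair were 41138 bp apart, and at Rabggtb and Acadm 18118 bp. The remaining pair, 16043 bp apart, joined Klrd1 and Klrk1, which encode the lectin-like receptors CD94 and NKG2D. A region high-ranked in all 8 lists lay within 50 kb of 85 of the 254 regions, and a co-culture-high region within 50 kb of 6.

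The starts and ends of the genes nearest to the distal monoculture-high regions were high-ranked about as often as those near other distal monoculture sites. A protein-coding gene lay within 100 kb of 205 distal monoculture-high regions and of 2135 distal regions among all those high-ranked in all 4 monoculture lists. The start or end of that gene was high-ranked in no list for 100 of the 205 (48.8%), against 48.8% of the 2135, and in all 8 lists for 43 (21.0%), against 20.7%. It was high-ranked in more monoculture than co-culture lists for 18 (8.78%), against 8.43%, and in more co-culture than monoculture lists for 32 (15.6%), against 16.5%. These shares were near the background, and nothing particular to the monoculture-high regions is read from them.

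The 10 regions with the best worst-case rank in monoculture were all distal. The region that led them lies 13784 bp from Rcan2, an inhibitor of the phosphatase calcineurin (chr17:44053300-44053921). Its monoculture ranks were 2341 and 2663 in normoxia and 3768 and 2930 in hypoxia. In co-culture it ranked 8089 and 10024 in replicate 1 of normoxia and of hypoxia and had no peak in either replicate 2. An intergenic region 240288 bp from Pfkp, a phosphofructokinase of glycolysis (chr13:6889348-6889984), ranked 1465, 2269, 4260 and 3952 in monoculture. Its only co-culture peak was in normoxia replicate 1, at rank 8344. The co-culture lists without a peak at these regions were longer than the normoxic monoculture lists, and those of 21826 and 21633 peaks were shorter than the hypoxic monoculture lists.

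Inside genes, a region of Zranb3, an annealing helicase of DNA repair (chr1:127980997-127981904), ranked 3533 to 4702 in monoculture and 10460 to 14564 in co-culture, with a peak in every list. A region of Itprip, a regulator of the inositol trisphosphate receptor (chr19:47910223-47910921), ranked 3767 to 4767 in monoculture and 9244 to 25699 in co-culture. A region of Rin3, an activator of the early-endosome GTPase RAB5 (chr12:102295188-102295776), ranked 2539 to 4885 in monoculture, 7653 and 12212 in 1 library of each co-culture group, and had no peak in the others. In Adgrl2, a latrophilin adhesion receptor (chr3:148933203-148933748), the region ranked 3488 to 4688 in monoculture and 5360 and 13004 in the co-culture libraries with a peak. In Mrpl15, a mitochondrial ribosomal protein gene (chr1:4774987-4775824), it ranked 1956 to 4977 in monoculture and 8361 to 20170 in co-culture. The ranks of the cultures were apart at these 5 regions, which the rule fixes at Zranb3 and which held at 66.5% of all 254 regions. The remaining leading regions lie 21537 bp from Hpf1, a partner of PARP1 in histone ADP-ribosylation, 123961 bp from Cth, the enzyme that makes cysteine from cystathionine, and in the immunoglobulin heavy-chain cluster.

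**Figure D4:**
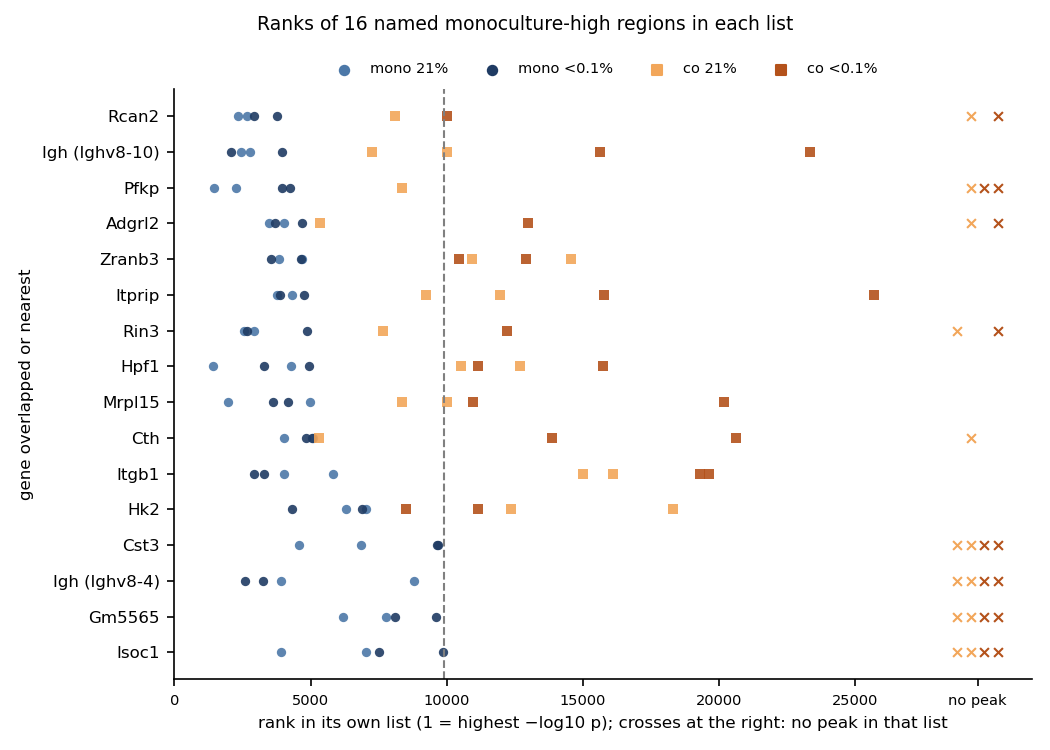
Each line is 1 named monoculture-high region, labelled by its overlapped or nearest gene, with its rank in each list on the x axis (circles for monoculture, squares for co-culture, crosses at the right for no peak). The dashed line is rank 9910. Of the 16 regions, 4 have crosses in all 4 co-culture lists.

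Only 4 of the 254 regions had no peak in any co-culture list. One lies 1692 bp from Cst3, which encodes the secreted protease inhibitor cystatin C and is among the most abundant microglial transcripts (chr2:148877204-148877843). Its monoculture ranks were 6847 and 4591 in normoxia and 9672 and 9644 in hypoxia, with 40, 51, 67 and 86 fragments at the summit. Its neighbour 1008 bp away (chr2:148875227-148876196) was high-ranked in all 8 lists, at 178 to 404 in monoculture and 207 to 742 in co-culture. The monoculture folds of the first site were low, at 3.73, 3.18, 3.91 and 3.61. The medians of the 254 regions there were 6.77, 5.58, 8.30 and 8.63. Sites next to each other at Cst3 thus differed in what was called, one kept at a high rank in co-culture and the other without a peak. No co-culture peak reached from the neighbour into the site without one, since a peak across both would have merged them into 1 region. Whether that site closed or only went uncalled beside its strong neighbour was not tested. Another lies 6890 bp from Gm5565, a predicted gene (chr5:146150295-146150908), at ranks 6203 to 9616 with 13 to 32 fragments. The last of the intergenic ones lies 34424 bp from Isoc1, an isochorismatase-domain gene (chr18:58713994-58714493), at ranks 3927 to 9872 with 14 to 30 fragments.

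The immunoglobulin heavy-chain variable cluster on chromosome 12 held 12 regions high-ranked in all 4 monoculture lists, of which 3 were monoculture-high, where 5.57% of such regions were genome-wide, and 5 were high-ranked in all 8 lists, as were 3417 of the 4563. This cluster encodes the variable parts of antibody heavy chains and is rearranged in B cells. All 3 monoculture-high regions lie on segments of the Ighv8 family, which were singled out after their values were seen. The region at Ighv8-4 (chr12:115023625-115024150) had monoculture ranks of 8790 and 3899 in normoxia and 3261 and 2599 in hypoxia, and no peak in any co-culture list. The region at Ighv8-10 (chr12:115518651-115519839) ranked 2085 to 3966 in monoculture and 7259 to 23364 in co-culture. At Ighv8-13 (chr12:115764928-115765499) the ranks were 2634 to 7598 in monoculture, with a single co-culture peak at rank 15314. Of the 12 regions of the cluster, 5 held an Ighv8 segment, and the other 2, of which 1 is a wide merged region over several segments, were high-ranked in all 8 lists. The RefSeq table lists 16 Ighv8 segments among 183 variable segments. Such segments are near copies of each other, so reads can be placed at more than 1 of them, and these regions are reported as uncertain.

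Among regions at gene starts, the one at Ptgs1 (chr2:36230054-36230924) covers the window with PU.1 letters printed above. Ptgs1 encodes cyclooxygenase-1, which microglia express constitutively for prostaglandin synthesis. In monoculture it ranked 4015 and 5616 in normoxia and 6633 and 3787 in hypoxia. In co-culture it had no peak in normoxia replicate 1 and ranked 5090 in normoxia replicate 2, 12025 and 17056 in hypoxia. Its co-culture normoxia replicates thus lay on opposite sides of the rank limit. At Apbb1ip (chr2:22773554-22774660), whose product RIAM links RAP1 to integrin activation, ranks were 6164 to 8268 in monoculture and 9015 to 14904 in co-culture, with a peak in every list. At Klra17 (chr6:129876206-129877355), of the Ly49 receptor family, they were 5934 to 7007 and 5512 to 14890, and the near-identical copies of this family make the placement of reads uncertain.

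At Mgst1 (chr6:138140083-138141603), a microsomal glutathione transferase, ranks were 3417 to 9742 in monoculture and 4363 to 16222 in co-culture. At Ube2l6 (chr2:84798209-84799836), the conjugating enzyme of the interferon-induced modifier ISG15, they were 5479 to 9613 and 10651 to 16290. At Rnf145 (chr11:44519878-44520785), a ubiquitin ligase of cholesterol control, they were 5917 to 9699 and 5014 to 13044. Tank, which encodes an adaptor of TRAF signalling (chr2:61578246-61580004), had ranks of 6025 to 6941 and 10781 to 13312. The ranks of the cultures overlapped at Ptgs1, Klra17, Mgst1 and Rnf145 and were apart at Apbb1ip, and at Ube2l6 and Tank, where the rule fixes it. The other gene-start regions lie at Mia2, Gm33049, and at the starts of the non-coding genes Gm33475 and Gm32440 inside St3gal6 and Pde6c.

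Of 259 genes in 10 lists of pathways and cell types, 3 had a monoculture-high region within 10 kb (1.16%), close to the 0.805% of all 21627 protein-coding genes. They are Itgb1 of the adhesion list (1 of 29 genes), Hk2 of the hypoxia targets (1 of 33) and Cst3 of the microglia list (1 of 38). No gene of the AP-1 (23), cell cycle (23), inflammation and NF-kappaB (26), interferon and antigen presentation (27), lysosome and lipid (27), glioma (22) or fibroblast (12) lists had one. A co-culture-high region lay within 10 kb of 12 of the 259 (4.63%, against 3.26% of all genes), among them Fosl2 and Egr3 of the AP-1 list, Vim and Cd44 of the glioma list, and Socs3. The lists thus held about the share of monoculture-high regions that genes in general held.

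Near Itgb1, the beta1 integrin chain (chr8:128679822-128680951), the region ranked 4008, 5809, 3301 and 2909 in monoculture and 16124, 14995, 19643 and 19303 in co-culture. Its summit held 30 and 29 fragments in the normoxic monocultures and 30 and 44 in the normoxic co-cultures, against 70 and 81 in the hypoxic monocultures and 32 and 17 in the hypoxic co-cultures. These counts are not scaled for depth. The solved background, the only measure of depth here, was 0.76 and 1.03 in normoxic monoculture and 1.07 and 1.38 in normoxic co-culture. In these libraries the median over the regions high-ranked in all 8 lists, a signal and not a depth, was 34, 33, 63 and 78. The deposited fold at the Itgb1 region was 6.66 and 3.99 in normoxic monoculture and 3.81 and 3.21 in normoxic co-culture. The part of depth in the normoxic counts was not tested. A region 24520 bp away was high-ranked in all 8 lists, at 149 to 1138. Near Hk2, the hexokinase of the first step of glycolysis (chr6:82715727-82716640), the ranks were 6296, 7042, 6890 and 4304 in monoculture. In co-culture they were 12345 and 18319 in normoxia and 11166 and 8505 in hypoxia, so that both hypoxic libraries ranked it above both normoxic ones there.

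Some further monoculture-high regions lie at genes of myeloid cells, picked from the 254 after their values were seen, as examples and not as a group. A region inside Plcg2, the phospholipase downstream of TREM2 (chr8:117542953-117544147), ranked 5964 to 6969 in monoculture and had 1 co-culture peak, at rank 21968. Another inside Tlr7, the endosomal receptor of single-stranded RNA (chrX:167318418-167319436), ranked 2501 to 9534 in monoculture and 9976 to 17098 in co-culture, with no peak in hypoxia replicate 2. The region of Kmo, the kynurenine hydroxylase (chr1:175639760-175641025), ranked 5289 to 8373 in monoculture and 12456 to 18291 in co-culture. The region 2681 bp from Mpeg1, the pore-forming perforin-2 of macrophages (chr19:12457327-12458089), ranked 3482 to 6619 in monoculture and 7265 to 15892 in co-culture. A region of Gpr84, a receptor of medium-chain fatty acids (chr15:103310440-103311486), ranked 5035 to 7543 in monoculture and 8832 to 14518 in co-culture. The region 11035 bp from Tlr8, a further RNA receptor of endosomes (chrX:167229271-167230088), ranked 1795 to 6926 in monoculture and 6872 to 16572 in co-culture. The ranks of the cultures overlapped at Tlr8 and were apart at the other five, which the rule fixes at Plcg2, Tlr7 and Kmo.

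The rule treats both oxygen levels alike, but it chose the regions by their ranks, so oxygen values within a culture are given as a description with no test. In co-culture, a peak was present at 86.4% ± 0.835 (SD, n = 2) of the 254 regions in normoxia and 84.3% ± 13.4 (SD, n = 2) in hypoxia. The difference of −2.17 percentage points was smaller than the spread of the hypoxic pair, which had 93.7% and 74.8%. It changed sign without co-culture hypoxia replicate 2 (7.34) and without monoculture normoxia replicate 1 (2.02) or 2 (4.04). The median rank in monoculture was 5864.25 ± 1000 (SD, n = 2) in normoxia and 6405.5 ± 542 (SD, n = 2) in hypoxia, a difference of 541.25 that was within the spread of the normoxic pair and was −266.75 without monoculture normoxia replicate 2. In co-culture, the median rank was 11566.5 ± 284 (SD, n = 2) in normoxia and 14123.8 ± 999 (SD, n = 2) in hypoxia. This difference of 2557.25 went down to 829 without co-culture hypoxia replicate 1 and up to 4775.5 without co-culture normoxia replicate 2, and the list with the worst median rank was also the longest. High ranks were found at 24 and 12 regions (9.45% and 4.72%) in hypoxic co-culture and at 69 and 50 (27.2% and 19.7%) in normoxic co-culture. Over all regions high-ranked in all 4 monoculture lists, the shares were also lower in hypoxic co-culture, at 85.3% and 83.1% against 92.9% and 91.9%, so this order is not read as one of the 254 regions.

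Region by region, both hypoxic monoculture ranks were better than both normoxic ones at 33 of the 254 regions (13.0%), against 19.9% of all regions high-ranked in all 4 monoculture lists. Both normoxic ranks were better at 67 (26.4%), against 30.5%. Toward hypoxia, a region inside Kcnk10, a background potassium channel gene, ranked 9350 and 9349 in normoxia and 4576 and 3606 in hypoxia. A region 7938 bp from Foxe3, a forkhead factor of the lens, ranked 5087 and 7236 against 1383 and 2071, and one inside Tyw1, a tRNA-modifying enzyme gene, 7676 and 7580 against 3484 and 3524. Toward normoxia, a region 1301 bp from Klrk1 ranked 4701 and 1520 in normoxia and 9005 and 9243 in hypoxia. A region inside Ttll7, a tubulin polyglutamylase gene, ranked 3548 and 2120 against 8979 and 8306, and a region 12728 bp from Tmem247 ranked 3829 and 5099 against 9846 and 9834. These 6 were named for the size of this difference, which carries no test.

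In co-culture, a peak in both hypoxic lists and in neither normoxic one was found at 6 of the 254 regions (2.36%), against 0.197% of all regions high-ranked in all 4 monoculture lists. The reverse was found at 2 (0.787%), against 0.219%. The Tyw1 region was among the 6, with co-culture hypoxia ranks of 11511 and 11828. The background includes the 254 regions and held only 9 regions of the first kind and 10 of the second. A region without a peak at one oxygen level can be high-ranked only in the lists of the other, so the rule favours both kinds. The 254 regions also rank low in co-culture by choice, nearer the calling threshold than most. Nothing particular to them is read from either share.

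The rank limit divides similar regions. Just inside it, by worst monoculture rank, were a region 29210 bp from Jun, the AP-1 subunit (9904), one inside Bcas1 (9885) and one 21365 bp from Irf2bp2, a transcriptional co-repressor (9874). Just outside were regions 214124 bp from Zfp352 (9985), 22928 bp from Spata5 (9985) and 4300 bp from Blnk, an adaptor of B-cell receptor signalling (9992). Their co-culture ranks were 13569 to 16990 at Jun and 7475 to 16672 at Blnk.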

How the data were processed

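Chromatin accessibility was measured in 8 ATAC-seq libraries, with 1 deposited peak list each, so the authors' peaks were called per library. Per the submitters' processing notes, Trimmomatic 0.36, HISAT2 2.1.0, Picard, SAMtools, deepTools and MACS2 2.1.1.2 and the build mm10 were used. Their settings, thresholds, read filters and any shift for the Tn5 cut are not given in the sources used here. Each deposited list gives a fold (ratio) of the summit over background, a −log10 p, a −log10 q, a score that follows the −log10 q, and a summit offset in bp. The deposited fold, score, p-value and q-value columns come from the authors' caller, hold for 1 list at a time, and were used to rank, filter or describe peaks within it. How trimming, alignment and filtering could shift a rank cannot be told from the lists.

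Peaks were ranked by −log10 p, cut to 9910 a list, and merged where they overlapped by 1 bp. The fragment number at a summit was solved from the deposited fold and −log10 p, assuming a Poisson p and a pseudocount of 1, to within 0.001, for 99.8% to 99.9% of peaks. The most frequent solved background was 0.76 to 1.45 fragments per position, which is the only measure of depth here and was lowest in monoculture normoxia replicate 1. Gene positions came from RefSeq on GRCm38.p6, whose gene table has no strand, so a start and an end were treated alike. Gene starts came from a promoter table that held a start for 17273 of 21627 protein-coding genes (79.9%). Starts on chromosome 18 and the sequences of distal regions were not analysed here. The selection code was run on simulated peak lists with planted regions, a check of the code and not of the regions reported here. Permutation tests of oxygen over libraries were planned and are not reported, because the ranks they use chose the regions.

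Named regions are the 10 with the best worst monoculture rank, those within 10 kb of a listed gene, those without any co-culture peak, 3 on each side of the limit, and 3 in each direction of oxygen. Regions at gene starts, in the heavy-chain cluster and at myeloid genes were added after their values were seen. Each region was named by the protein-coding gene it overlaps or the nearest one, except in the heavy-chain cluster, where the segment is named. The regions and gene lists were chosen with earlier results of these data known. Ranking by fold, shorter lists, summit windows, stricter q, wide peaks and chromosome Y left out, each library left out, and a replicate block were tried as alternatives. The work was done in Python (3.11.15) with pandas (2.3.3), numpy (2.4.6) and scipy (1.17.1), and plots were drawn with matplotlib (3.10.9).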

Additional observations from a re-analysis of the deposited data

How the results depend on the processing

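Which regions are chosen depends on the list length. With 5000 peaks a list, 199 regions met the rule, of which 9 were among the 254, and with 7500 peaks 224, of which 72 were. Ranking by deposited fold chose 218, of which 101 were among the 254 (39.8% of the 254, 46.3% of the 218). Summit windows, no peaks over 10 kb, no chromosome Y and a −log10 q of at least 5 chose 225 to 255, with 225 to 254 of the 254 among them. Allowing no high rank in the other culture left 99 monoculture-high and 201 co-culture-high regions, and ranking distal peaks only, chosen after seeing the data, left 122 and 286. With 5000 peaks a list the co-culture-high count was 248. Of 25 named regions, 8 were still chosen by fold, 9 with 5000 peaks, 13 with 7500 and 9 with distal peaks only, a count added after seeing the data.

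Leaving out 1 library at a time gave 327 to 556 monoculture-high regions, with the count above 1.5 times 254 without monoculture normoxia replicate 1 (420) or 2 (520), monoculture hypoxia replicate 1 (393), or co-culture normoxia replicate 1 (551) or 2 (556). Fewer libraries make the rule easier to meet. The co-culture-high count was then 577 to 852. The share at gene starts or ends was 5.00% to 11.7%, highest without co-culture normoxia replicate 1 (11.6%) or 2 (11.7%). It was 10.6% with 5000 peaks, 10.7% with 7500 and 16.9% within 5 kb in place of 1 kb. Every value at 1 kb was below the 24.6% of all regions as first ranked, and ranking distal peaks only gives no value.

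The oxygen difference in the percent of regions with a co-culture peak changed sign by fold (0.917), with distal peaks only (0.410), and without monoculture normoxia replicate 1 (2.02) or 2 (4.04) or co-culture hypoxia replicate 2 (7.34), in a leave-one-out range of −9.68 to 7.34. The difference in monoculture median rank ran from −266.75 to 1314.5 over the same fits and was negative only without monoculture normoxia replicate 2. That in co-culture was positive under all alternatives run, 829 to 4775.5. The cause of these changes was not tested. The replicate numbers mark no shared culture in the labels. With a replicate block the 3 differences were the same (−2.17, 541.25 and 2557.25), since a block over equal pairs does not move a difference of means. With 2 libraries a group and depth known only through the peaks, a missing peak says that a site did not pass the threshold and not that it was closed.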
